A study of Mus musculus with 12 samples.

Results

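The 10 genes described here mark the cells that wrap blood vessels. Acta2, Tagln, Myh11 and Cnn1 are contractile genes of vascular smooth muscle, and Rgs5, Pdgfrb, Kcnj8, Abcc9, Cspg4 and Vtn are commonly used markers of pericytes. They were chosen by gene symbol, and each of the 10 was found once among the 21493 genes listed for every library. All 10 also passed the filter on low counts that left 13158 genes for testing.

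The data are poly-A RNA sequencing of adult cardiomyocytes from 3-month-old mice, released from the heart by enzymatic perfusion. There were 4 groups of 3 libraries: Des+/+ mice, which carry desmin, and Des-/- mice, which lack it, each either left without exercise (non-swim) or made to swim (swim). Per the study's methods, each library was made from pooled mice of an αMHC-GFP reporter line, in which the cardiac α-myosin heavy chain promoter drives GFP, taken regardless of sex. The background strain was 129SV, and the sample labels themselves give only the desmin genotype and the swimming.

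Pericytes sit on capillaries and share a basement membrane with the endothelium, while smooth muscle cells form the contractile layer of arterioles and arteries. Endothelial PDGF-B, acting through the receptor encoded by Pdgfrb, recruits and maintains pericytes. The contractile genes of smooth muscle are controlled by serum response factor, Srf, and its cofactor myocardin, Myocd. Srf binds a short promoter element called the CArG box. Heart muscle uses the same factors, and desmin itself is made in both muscle lineages.

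The libraries held 4320819 to 12072443 reads assigned to genes. The shallowest was replicate 2 of the Des-/- swim group, in which 3 reads, taken as the floor of detection, equalled 0.656 CPM (read counts scaled to a common library size). Aligned reads that matched no counted feature made up 34% to 64.5% of those assigned, ambiguous or without a feature, with that same library highest. Under counting by strand, these can include reads that lie inside genes. Des itself lay between 973 and 3647 CPM in the Des+/+ libraries and between 50.3 and 101 CPM in the Des-/- libraries. The genotypes lay apart on the first principal component (48.9% of the variance), and the farthest of the Des-/- libraries along it were the third replicates. Cardiomyocyte markers were present throughout, with summed levels of 21031 to 31064 CPM per kb of exon in Des+/+ non-swim and 4093 to 9981 in Des-/- non-swim libraries, and markers of endothelium, fibroblasts and macrophages were present in every group.

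The promoter is shown first for the gene of the set with the highest contractile level. Sequences were taken from RefSeq (GRCm38.p6), in which 7 of the 10 genes had a promoter entry of 250 bases before to 50 bases after the start; Tagln, Myh11 and Pdgfrb had no entry. The CArG box is CC and GG around 6 bases of A or T. A CArG-like box here allows 1 G or C among the inner 6, and both patterns read the same on either strand. Of all 32851 promoters in the table, 1.63% held a CArG box and 9.98% held a box of either kind. Among the 7 genes with an entry, Acta2 alone held any, 2 CArG-like boxes starting 84 and 34 bases upstream of the RefSeq start. In GENCODE M21 the Acta2 gene starts farther upstream, at 34255590, so the stretch printed below lies inside that gene span. Its stretch is set beside those of Myl9, the non-member gene whose level followed the contractile genes most closely, and Actc1, the cardiac actin, with the boxes in capitals.
Acta2, chr19:34255388-34255467, minus strand: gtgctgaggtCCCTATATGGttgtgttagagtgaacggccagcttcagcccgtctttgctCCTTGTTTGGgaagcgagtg
Myl9, chr2:156775293-156775384, plus strand: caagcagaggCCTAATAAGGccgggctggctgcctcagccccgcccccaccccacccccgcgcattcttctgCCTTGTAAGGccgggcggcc
Actc1, chr2:114052903-114053060, minus strand: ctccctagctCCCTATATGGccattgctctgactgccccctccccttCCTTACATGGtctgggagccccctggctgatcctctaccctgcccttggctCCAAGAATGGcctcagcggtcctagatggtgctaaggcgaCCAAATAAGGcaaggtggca
Acta2 and Actc1 share the letters of their most upstream box.  A match to these letters is a description of the window and not a measured binding site.

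Levels were first compared between the genes, per kb of exon, within each group. Rgs5, a regulator of G protein signalling and the most abundant of the 10, averaged 613 ± 174 CPM per kb (SD, n = 3) in Des+/+ non-swim, 722 ± 127 in Des+/+ swim, 410 ± 72 in Des-/- non-swim and 519 ± 224 in Des-/- swim libraries. It exceeded the second gene, Acta2, without overlap of libraries in all 4 groups, and made up 62.7% to 77.4% of the summed level of the 6 pericyte genes. In the Des+/+ non-swim group the order was Rgs5, Acta2, Abcc9, Tagln, Vtn, Pdgfrb, Kcnj8, Myh11, Cspg4 and Cnn1. Abcc9 and Tagln overlapped there, as did Vtn with Pdgfrb and Pdgfrb with Kcnj8. Cspg4 and Cnn1 were lowest in every group, at 6.85 to 8.16 and 3.51 to 4.83 CPM per kb. In both Des-/- groups Abcc9 took the place before Myh11, behind Kcnj8, although neighbours from Acta2 down to Myh11 overlapped there.

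**Figure D1:**
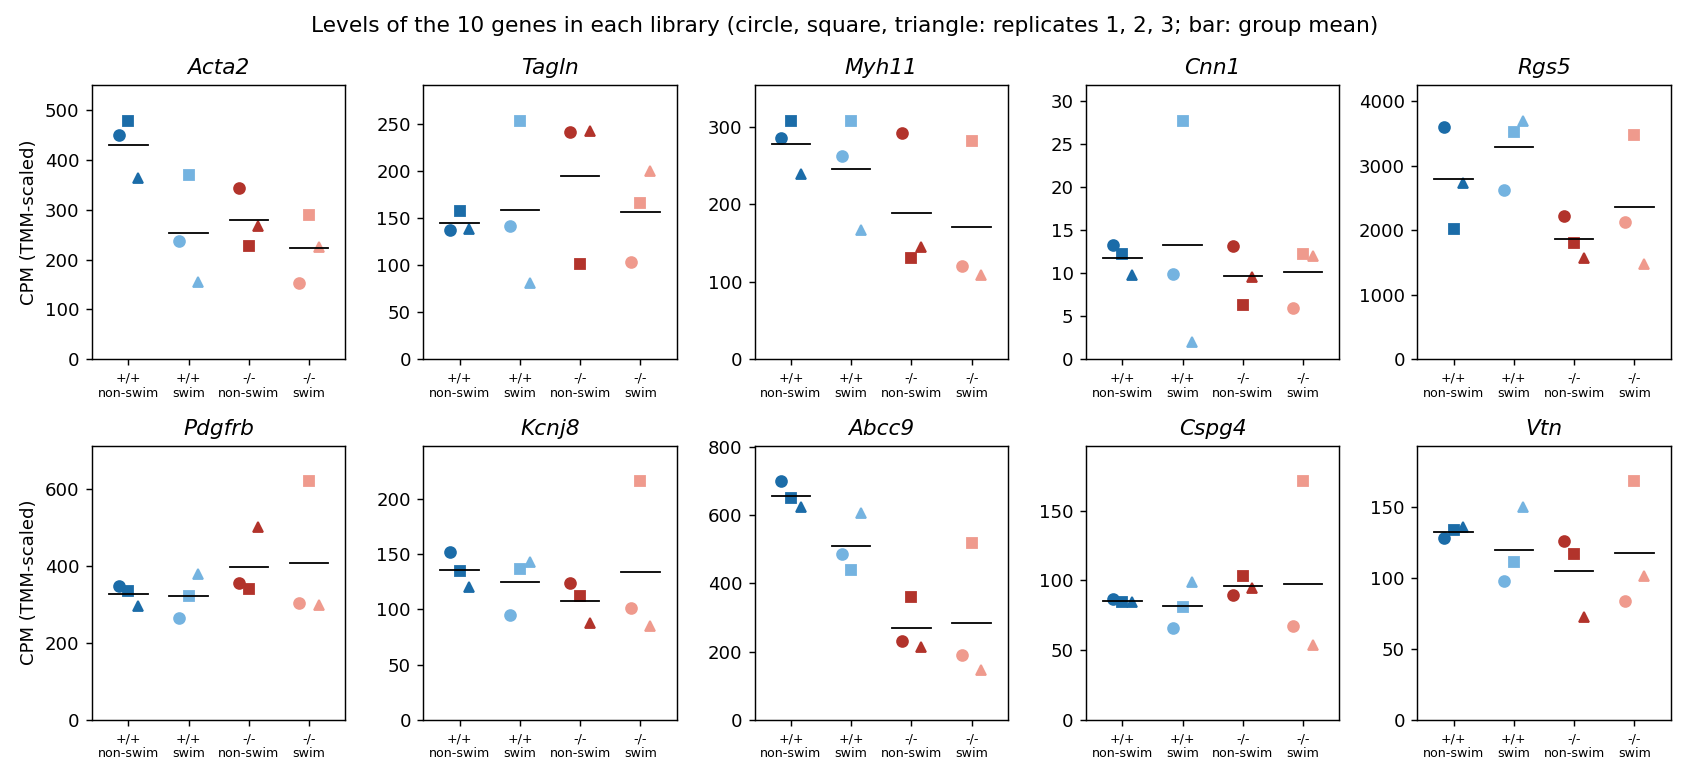
Level of each of the 10 genes in CPM after TMM scaling (linear axis from 0) in the 12 libraries; each symbol is a library, and the bar is the mean of the 3 libraries of a group. Abcc9 is the gene whose Des-/- non-swim libraries (213 to 359 CPM) lie farthest below the Des+/+ non-swim libraries (623 to 699 CPM), and replicate 2 of the Des-/- swim group (square) is the highest of its group for all 6 pericyte genes.

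The first comparison asked whether the genes of vessel wall cells differed between the Des-/- and Des+/+ cardiomyocyte isolates without exercise. RNA of vessel wall cells in these libraries is what was carried through the isolation of cardiomyocytes. Only Abcc9 was called, lower in Des-/- libraries, which is 1 of 10 genes, whereas 32% of all 13158 tested genes were called at an adjusted p under 0.05 (edgeR, quasi-likelihood test, Benjamini and Hochberg over all tested genes). The median log2 change of the 10 genes was -0.33 beside 0.04 for all tested genes. The groups did not overlap for 4 of the 10 (Acta2, Abcc9 and Vtn lower, Cspg4 higher), a share close to the 47.9% of all tested genes without overlap. In these bulk samples, fewer cells of a type and less RNA per cell cannot be told apart.

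Abcc9 (ENSMUSG00000030249; GRCm38 chromosome 6, 142587862 to 142702315, minus strand) encodes the sulphonylurea receptor subunit of ATP-sensitive potassium (KATP) channels, which link membrane voltage to energy state. An antisense gene, 5330439B14Rik, overlaps it on the opposite strand, and the sources disagree on whether the library kit marked strand, without which the reads of both cannot be told apart. Its level was 699, 650 and 623 CPM in replicates 1, 2 and 3 of Des+/+ non-swim and 232, 359 and 213 CPM in those of Des-/- non-swim. Every Des-/- library lay below every Des+/+ library. The mean dropped from 657 ± 38.5 to 268 ± 79.4 CPM (SD, n = 3), a log2 change of -1.29 (SE 0.40, 95% interval -2.17 to -0.42, edgeR adjusted p = 0.0287), or 2.45-fold. With 1 library left out at a time, the log2 change was -1.57 to -1.15. The call did not hold without any of the 3 Des+/+ non-swim libraries or without replicate 1 or 3 of Des-/- non-swim, with edgeR adjusted p of 0.0591 to 0.0889. These fits also called fewer of all genes, 19.5% to 27.6%.

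After swimming, the Abcc9 levels were 487, 438 and 605 CPM in Des+/+ and 190, 519 and 146 CPM in Des-/- libraries. Here replicate 2 of the Des-/- group stood among the Des+/+ values and the others stood below them. The log2 change was -0.84 (SE 0.40, 95% interval -1.71 to 0.03), with an edgeR adjusted p of 0.175. Without that replicate it was -1.60 and was called (edgeR adjusted p = 0.0207), in a fit that called 4.74% of all genes. Over all fits with 1 library left out, the log2 change of Abcc9 after swimming was -1.60 to -0.53. The edgeR adjusted p was 0.0207 to 0.388. The study's own filter, applied to DESeq2 results (unadjusted p up to 0.05, a log2 change of 0.6 or more in either direction, and 20 or more counts on average in the higher group), passed 1 of the 10 genes in each genotype comparison, Abcc9 both times, beside 32.2% of all genes without and 18.6% after swimming.

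**Figure D2:**
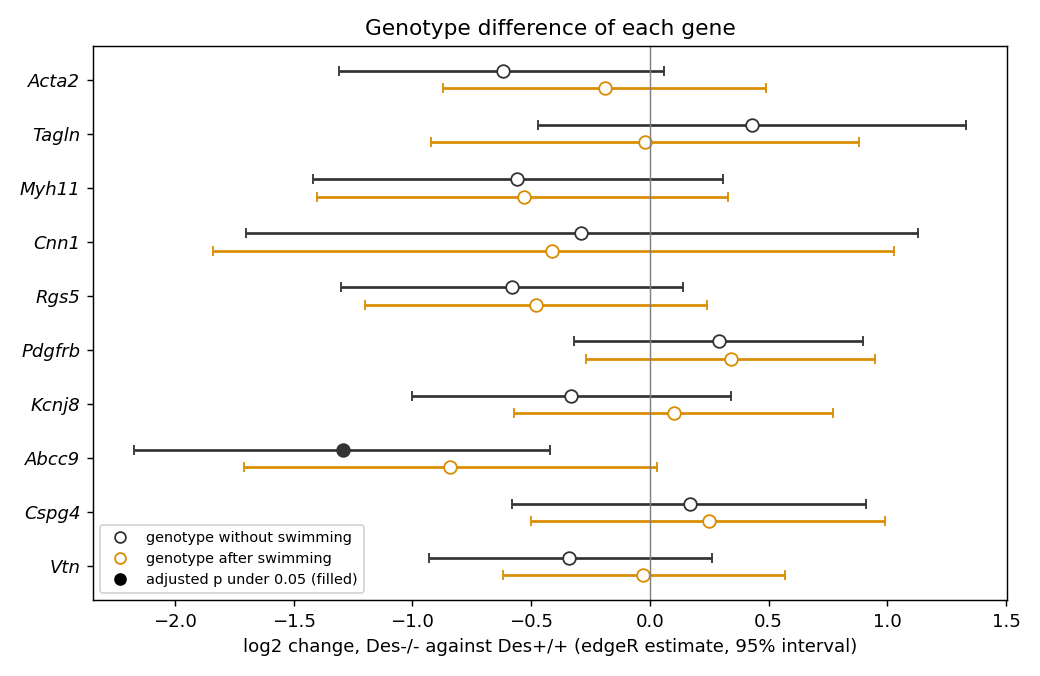
Log2 change of each gene in Des-/- against Des+/+ libraries without swimming (dark) and after swimming (orange), with the 95% interval of the edgeR estimate; a filled point has an adjusted p under 0.05. Abcc9 without swimming, at -1.29, is the one filled point, and every other interval spans 0.

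Kcnj8, the pore subunit that pairs with the Abcc9 product in vascular cells, is its neighbour on the chromosome (ENSMUSG00000030247; chromosome 6, 142564837 to 142571614, minus strand), 16247 bases away on the same strand. It was measured at 152, 135 and 120 CPM in Des+/+ non-swim and 124, 112 and 87.3 CPM in Des-/- non-swim libraries. The groups overlapped, and the log2 change was -0.33 (95% interval -1.0 to 0.34, edgeR adjusted p = 0.44). After swimming it was 95.3, 137 and 143 CPM in Des+/+ and 101, 216 and 85.1 CPM in Des-/- libraries, with a log2 change of 0.10 (95% interval -0.57 to 0.77).

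The pair was therefore compared within each library. The ratio of Kcnj8 to Abcc9, both per kb of exon, was 0.634 to 1.02 in the 6 Des+/+ libraries and 1.03 to 1.92 in the 6 Des-/- libraries, so the genotypes did not overlap. The gap was wider within each swimming state, with at most 0.714 against at least 1.03 without and at most 1.02 against at least 1.37 after swimming. Across swimming states the ratio was 2.04-fold higher in Des-/- libraries, a log2 difference of 1.03, with 1.0 without and 1.06 after swimming. This ratio was chosen after the values of both genes were seen, so it is given as a description, without a p-value. A ratio within a library shows unequal change and not which of the pair moved.

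KATP channels, including those with the Abcc9 product, also serve heart muscle cells. The other subunits, Kcnj11 and Abcc8, were lower without swimming too. Kcnj11, the pore subunit of the cardiac muscle channel, lay at 62, 194 and 118 CPM in Des+/+ non-swim and 24.9, 51.6 and 11.5 CPM in Des-/- non-swim libraries, a log2 change of -2.09 (SE 0.57, edgeR adjusted p = 0.0172). Abcc8, a receptor subunit, fell by 2.2 on the log2 scale (SE 0.57, edgeR adjusted p = 0.0138). So 3 of the 4 subunits were called lower, all but Kcnj8, beside 18% of all tested genes. After swimming 0 of 4 had an edgeR adjusted p under 0.05 (10.6% of all tested genes) or an unadjusted p under 0.05 (30.5%). Cardiomyocyte markers moved along with these genes. Of 12, 11 were called lower without swimming (18% of all tested genes), with a median log2 change of -2.02, and 1 after it (5.57%). Over the 12 libraries, the log2 level of Abcc9 had a Pearson r of 0.80 with the mean of the cardiomyocyte markers and of 0.65 with that of the other pericyte genes; taken as deviations from the group means, the values were 0.48 and 0.88. The part of cardiomyocyte RNA in the Abcc9 difference was not tested.

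**Figure D3:**
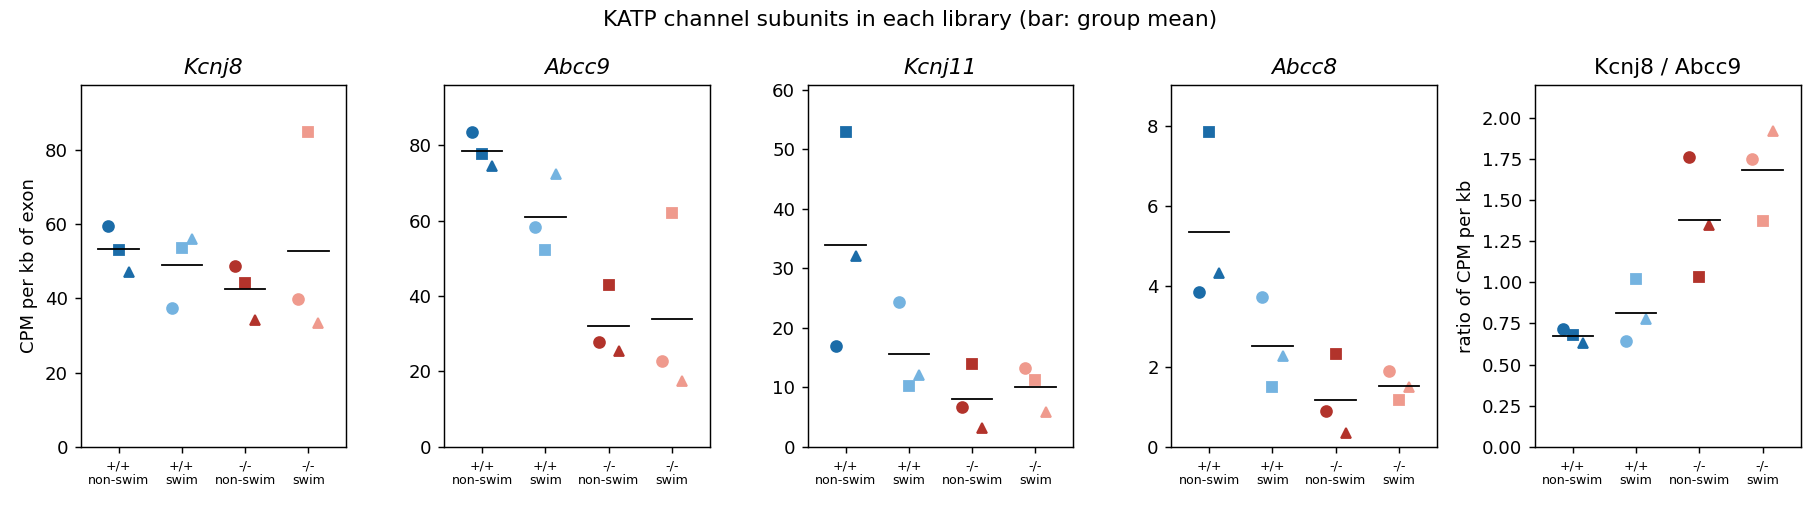
The 4 KATP subunit genes in CPM per kb of exon, and the ratio of Kcnj8 to Abcc9, in each library, with the group mean as a bar. The ratio is at most 1.02 in Des+/+ and at least 1.03 in Des-/- libraries, and Kcnj8 itself overlaps between the genotypes.

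Among the other pericyte genes, none was called in either genotype comparison. Rgs5 (ENSMUSG00000026678; chromosome 1, 169655501 to 169695813, plus strand) was 3604, 2025 and 2737 CPM in Des+/+ non-swim and 2219, 1803 and 1573 CPM in Des-/- non-swim libraries. The groups overlapped at replicate 2 of Des+/+ and replicate 1 of Des-/-, and the log2 change was -0.58 (95% interval -1.30 to 0.14, edgeR adjusted p = 0.198). After swimming it was 2621, 3529 and 3698 CPM in Des+/+ and 2126, 3474 and 1473 CPM in Des-/- libraries, with a log2 change of -0.48 (95% interval -1.20 to 0.24).

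Pdgfrb (ENSMUSG00000024620; chromosome 18, 61045150 to 61085061, plus strand), the receptor for endothelial PDGF-B, is also expressed by fibroblasts. It ranged from 296 to 348 CPM in Des+/+ non-swim and from 340 to 501 CPM in Des-/- non-swim libraries, and its log2 change was 0.29 without (95% interval -0.32 to 0.90) and 0.34 after swimming. Fibroblast markers were called higher for 12 of 14 genes without and 4 of 14 after swimming, beside 14% and 5.01% of all tested genes. Their summed levels were 1623 to 2049 CPM per kb in Des+/+ non-swim against 3026 to 5949 in Des-/- non-swim libraries. The part of fibroblast RNA in the Pdgfrb level was not tested.

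Cspg4 (ENSMUSG00000032911; chromosome 9, 56865033 to 56899870, plus strand), a membrane proteoglycan of pericytes and glial precursors, held the narrowest range of the 10, 84.4 to 86.7 CPM in Des+/+ non-swim libraries. The Des-/- non-swim libraries, at 89.2 to 103 CPM, all lay above these, yet the log2 change was only 0.17 (95% interval -0.58 to 0.91, edgeR adjusted p = 0.735). Vtn (ENSMUSG00000017344; chromosome 11, 78499091 to 78502324, plus strand) encodes vitronectin, a secreted adhesive glycoprotein. It lay at 128 to 136 CPM in Des+/+ non-swim and 72.2 to 126 CPM in Des-/- non-swim libraries, again without overlap, with a log2 change of -0.34 (95% interval -0.93 to 0.26). After swimming both genes overlapped between genotypes, with log2 changes of 0.25 and -0.03.

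The contractile genes were next. None of the 4 was called in either genotype comparison. Acta2, smooth muscle α-actin (ENSMUSG00000035783; chromosome 19, 34241090 to 34255590, minus strand), was 450, 479 and 363 CPM in Des+/+ non-swim and 344, 228 and 267 CPM in Des-/- non-swim libraries. All Des-/- values were below all Des+/+ values, and the log2 change was -0.62 (SE 0.31, 95% interval -1.31 to 0.06, edgeR adjusted p = 0.149). After swimming the levels were 237, 369 and 154 CPM in Des+/+ and 152, 290 and 225 CPM in Des-/- libraries, which overlapped, with a log2 change of -0.19.

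Tagln, an actin-binding protein of smooth muscle also known as transgelin (ENSMUSG00000032085; chromosome 9, 45929619 to 45936058, minus strand), went the other way in its estimate. It was 137, 157 and 138 CPM in Des+/+ non-swim and 241, 101 and 242 CPM in Des-/- non-swim libraries. Replicate 2 of Des-/- lay below the Des+/+ libraries and the others above, and the log2 change was 0.43 (95% interval -0.47 to 1.33). Over the 12 libraries, Tagln had a Pearson r of 0.36 with the mean of the fibroblast markers, and Acta2 of -0.23. The part of fibroblast RNA in the levels of Tagln and Acta2 was not tested. The ratio of Tagln to Acta2 per kb was 0.337 to 0.421 in Des+/+ non-swim, 0.489 to 1.0 in Des-/- non-swim, 0.578 to 0.758 in Des+/+ swim and 0.632 to 0.981 in Des-/- swim libraries. The log2 difference between genotypes was 0.96 without and 0.23 after swimming, where the libraries overlapped. This ratio too was chosen after the values were seen and is given as a description, without a p-value. Tagln overlaps Pcsk7 and an antisense gene on the opposite strand. The counting used strand, but the labels name a kit that does not mark strand and the methods one that does, and with the former, reads of Tagln and of these genes cannot be told apart.

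Myh11, the smooth muscle myosin heavy chain (ENSMUSG00000018830; chromosome 16, 14194535 to 14291372, minus strand), ranged from 239 to 307 CPM in Des+/+ non-swim and from 130 to 292 CPM in Des-/- non-swim libraries. Its log2 change was -0.56 without (95% interval -1.42 to 0.31) and -0.53 after swimming (95% interval -1.40 to 0.33). Cnn1, calponin, a thin filament protein of smooth muscle (ENSMUSG00000001349; chromosome 9, 22099216 to 22109630, plus strand), was the rarest of the 10. It was 9.92, 27.7 and 1.99 CPM in the Des+/+ swim libraries, the last from 14 reads, and between 5.97 and 13.3 CPM in the other 9. Its log2 changes of -0.29 without and -0.41 after swimming had intervals of over 2 log2 units in width, -1.70 to 1.13 and -1.84 to 1.03.

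Acta2 is 1 of 6 actins examined, of which 1 was called lower and 1 higher without swimming, beside 18% and 14% of all tested genes. Actc1, the cardiac actin, averaged 9415 ± 1501 CPM in Des+/+ non-swim and 2182 ± 1425 CPM in Des-/- non-swim libraries (SD, n = 3), a log2 change of -2.11 (SE 0.42, edgeR adjusted p = 0.00382). Actg1, a cytoplasmic actin, rose by 0.82 on the log2 scale (SE 0.28, edgeR adjusted p = 0.0404), and the other 4 actins, Acta2 among them, were not called. No 100-base stretch of any of the 10 genes' transcripts occurred exactly, in the same orientation, in a transcript of a gene outside the 10. The 100-base stretches of Acta2 closest to Actc1, Acta1 and Actg2 differed from these at 9, 8 and 10 positions. Opposite strands, as in the gene overlaps of Tagln and Abcc9, were not searched.

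In the comparison of genotypes after swimming, 0 of the 10 genes were called by edgeR, beside 10.6% of all tested genes, and 0 had an unadjusted p under 0.05, beside 30.5%. DESeq2 also called 0, beside 17.8% of the genes it tested. None of the 10 was without overlap, beside 35.9% of all tested genes. The median log2 change of the 10 was -0.11, beside 0.02 for all tested genes.

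Swimming was compared next within each genotype. In Des+/+ libraries 0 of the 10 genes were called by edgeR (0.0912% of all tested genes) or DESeq2 (7.89%). Acta2 was the one gene of the 10 with an unadjusted p under 0.05 (20.5% of all genes), at 431 ± 60.6 CPM before and 253 ± 109 CPM after swimming (SD, n = 3), a log2 change of -0.77 (95% interval -1.45 to -0.08, edgeR adjusted p = 0.204). It also passed the study's filter on DESeq2 results, as did 11.1% of all genes. Abcc9 was the one gene without overlap, beside 31.3% of all tested genes, with all 3 swim libraries (438 to 605 CPM) under the non-swim libraries and a log2 change of -0.37 (95% interval -1.23 to 0.49). The Rgs5 difference was 0.24 on the log2 scale (95% interval -0.48 to 0.95).

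In Des-/- libraries 0 of the 10 genes were again called for swimming by edgeR (0.0228% of all tested genes) or DESeq2 (2.65%). None had an unadjusted p under 0.05 (16.7% of all genes), passed the study's filter (9.48%) or was without overlap (19.4%). The log2 changes of Acta2, Rgs5 and Abcc9 were -0.33, 0.34 and 0.09. The interaction, which compares the swimming difference between the genotypes, was called by edgeR for 0 of the 10 genes and for 0% of all genes, and none of the 10 had an unadjusted p under 0.05, beside 16.3% of all genes. DESeq2 called 0 of the 10, beside 3.84% of the genes it tested. Both swimming comparisons share libraries with the genotype comparisons, so their values are not independent.

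The spread within groups was large for several of the genes, and single libraries carried it. In the Des+/+ swim group, replicate 3 was lowest and replicate 2 highest for all 4 contractile genes, with Acta2 at 154 against 369 CPM and Tagln at 80.4 against 253 CPM. Replicate 3 was at the same time the highest of its group for all 6 pericyte genes. In the Des-/- swim group, replicate 2 was the highest for all 6 pericyte genes, and the highest of all 12 libraries for Pdgfrb, Kcnj8, Cspg4 and Vtn, at 620, 216, 171 and 168 CPM. Replicate 3 of that group was its lowest for 5 of the 6 pericyte genes. It was the lowest of all 12 libraries for Rgs5, Kcnj8, Abcc9 and Cspg4, at 1473, 85.1, 146 and 53.4 CPM. Replicate 2 of that group is also the shallowest library and has the largest share of reads that matched no counted feature. The part of these in its levels was not tested. Without it, the log2 differences between genotypes after swimming came to -0.10 for Pdgfrb, -0.42 for Kcnj8 and -0.44 for Cspg4, the opposite sign to those with it. Without replicate 2 of Des+/+ swim, those of Acta2, Tagln and Cnn1 came to 0.18, 0.49 and 0.74, again opposite in sign.

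The contractile and pericyte genes covaried within each set more than between them. Taken as deviations from the group means over the 12 libraries, the contractile genes had a median Pearson r of 0.82 over their 6 pairs (0.53 to 0.92) and the pericyte genes one of 0.74 over their 15 pairs (0.44 to 0.93). Between the sets the median was 0.10 over 24 pairs (-0.35 to 0.66). The highest values were 0.93 for Abcc9 with Cspg4 and 0.92 for Acta2 with Cnn1. Myh11 lay between the sets, at 0.65 with the mean of the other contractile genes and 0.56 with that of the pericyte genes. With the group means kept, the medians were 0.635 for contractile, 0.62 for pericyte and 0.085 for between-set pairs. The lowest pericyte pair was then Pdgfrb with Abcc9, at 0.04. Pdgfrb then had an r of 0.36 with the mean of the other pericyte genes. These values describe 12 libraries with shared scaling and are not independent tests.

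**Figure D4:**
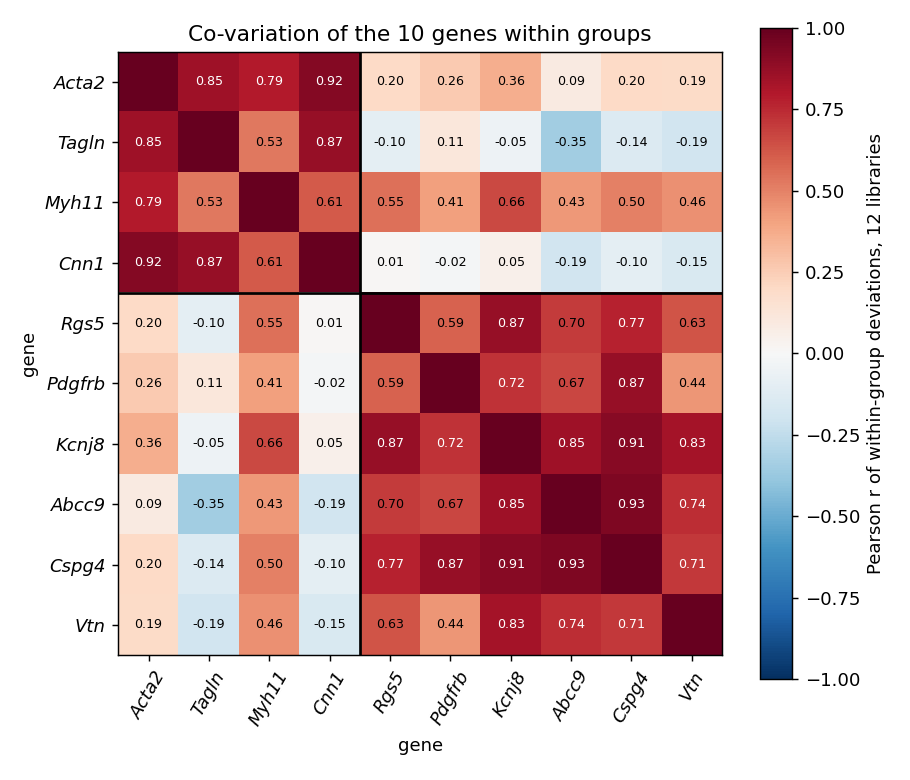
Pearson r between the log2 CPM of each pair of genes over the 12 libraries, after the mean of each group was taken away; the black lines part the 4 contractile genes from the 6 pericyte genes. The contractile block runs from 0.53 to 0.92, the pericyte block from 0.44 to 0.93, and the pairs between them from -0.35 to 0.66.

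**Figure D5:**
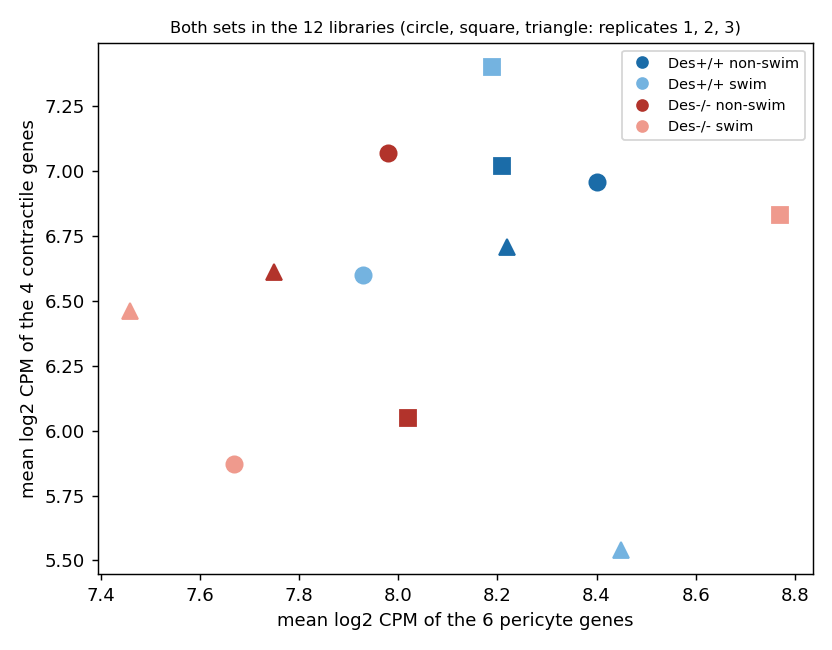
Mean log2 CPM of the 4 contractile genes (vertical axis) against that of the 6 pericyte genes (horizontal axis) in the 12 libraries; colour gives the group and shape the replicate. Replicate 3 of Des+/+ swim has the lowest contractile mean, 5.54, with a pericyte mean of 8.45, and replicate 2 of Des-/- swim has the highest pericyte mean, 8.77.

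Genes outside the sets were ranked by likeness to each mean, over all tested genes and the 12 libraries, as a description. The mean of the contractile genes was followed most closely by Myl9, the regulatory myosin light chain of smooth muscle (r = 0.914), then by Slc15a2 (0.857), Lmod1 (0.852), Acan (0.845) and Scube3 (0.839), where 95% of all genes were under 0.402. Lmod1 encodes leiomodin, an actin filament nucleator of muscle, and Acan the matrix proteoglycan aggrecan. The mean of the pericyte genes was followed by Gucy1b1, a subunit of the soluble guanylate cyclase that senses nitric oxide (r = 0.936), then by Atp1b2 (0.898), Egflam (0.888), Adra1d (0.857) and Tbc1d30 (0.852), where 95% of all genes were under 0.53.

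The wider lists of vessel wall genes were counted next, where edgeR called 32% of all tested genes without and 10.6% after swimming. At an unadjusted p under 0.05 the share of all tested genes after swimming was 30.5%. Of 15 other contractile genes of smooth muscle, 1 was called without swimming, Synpo2, an actin-bundling protein that heart muscle also makes, lower by a log2 of -1.40 (edgeR adjusted p = 0.00484), and 0 after it (2 at an unadjusted p under 0.05). The 15 had a median of -0.12, and Myl9 was at -0.20. Of 17 other pericyte genes in the tables, 2 were called higher without swimming, Anpep, an aminopeptidase also found on fibroblasts and myeloid cells (1.78, edgeR adjusted p = 0.00909), and Tbx18, a transcription factor of mural and epicardial cells (0.92, edgeR adjusted p = 0.00635). None of the 17 was called after swimming (2 at an unadjusted p under 0.05).

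Of 17 genes for signals that recruit mural cells, 3 were called without swimming, a smaller share than the 32% of all tested genes. Ednra, the endothelin receptor of smooth muscle and heart muscle, was lower in Des-/- libraries without (-1.18, edgeR adjusted p = 0.00587) and after swimming (-1.03, edgeR adjusted p = 0.0321). After swimming it was the 1 gene of the 17 called, beside 10.6% of all tested genes. Tgfb1 (0.67) and its receptor Tgfbr2 (0.65) were higher without swimming. Pdgfb, the ligand of Pdgfrb, had log2 changes of 0.22 without and -0.34 after swimming and was not called.

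Of 13 regulators of smooth muscle genes in the tables, 6 were called without swimming, 3 in each direction, beside 32% of all tested genes. Myocd fell by 2.05 on the log2 scale (edgeR adjusted p = 0.00549), Gata6 by 0.92 and Srf by 0.70 (edgeR adjusted p = 0.00395), and all 3 are also factors of heart muscle. Klf5, Mrtfa and Ebf1 were higher, by 1.36, 0.90 and 0.67, with Klf5 at 0.602 ± 0.123 against 1.56 ± 0.247 CPM (SD, n = 3). After swimming only Srf was called, at -0.65 (edgeR adjusted p = 0.0198), beside 10.6% of all tested genes. The 4 contractile genes described above were not called in either comparison.

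Markers of the other cells were set beside the vessel wall genes. Endothelial markers were called for 0 of 14 genes without swimming by edgeR (32% of all tested genes). They had 0 at an unadjusted p under 0.05 (43.7%) and a median log2 change of 0.03. After swimming 1 was called (10.6% of all tested genes), Vwf, the clotting factor carrier of endothelium, higher by 0.95. The summed level of the pericyte genes, divided by that of the endothelial markers, was 0.438 to 0.533 in Des+/+ non-swim, 0.326 to 0.42 in Des+/+ swim, 0.299 to 0.373 in Des-/- non-swim and 0.19 to 0.348 in Des-/- swim libraries. Rgs5 weighs most in this sum. The same ratio for the contractile genes overlapped between genotypes without swimming, at 0.146 to 0.211 in Des+/+ and 0.0897 to 0.183 in Des-/- libraries. The summed level of the other pericyte genes also overlapped, at 339 to 463 CPM per kb in Des+/+ non-swim and 388 to 471 in Des-/- non-swim libraries. These ratios and sums are descriptions with no test. Macrophage markers were called higher for 10 of 12 genes without and 1 of 12 after swimming. Those of activated fibroblasts were for 11 of 11 and 3 of 11, beside 14% and 5.01% of all tested genes. Replicate 3 of Des-/- non-swim stood far above the others of its group, with a macrophage sum of 2918 CPM per kb against 455 and 269, and an activated fibroblast sum of 1356 against 283 and 248. Replicate 3 of Des-/- swim also stood above its group, with a macrophage sum of 994 against 239 and 158. Its activated fibroblast sum was 712 against 174 and 174. Schwann cell markers were called for 0 of 7 genes by edgeR in both comparisons, beside 32% and 10.6% of all tested genes. At an unadjusted p under 0.05 they had 0 without and 2 after swimming, beside 43.7% and 30.5% of all tested genes. Over the 12 libraries, the Pearson r of the 10 genes with the mean of the fibroblast markers ran from -0.79 for Abcc9 and -0.75 for Rgs5, over -0.23 for Acta2, -0.04 for Cnn1 and -0.01 for Cspg4, to 0.32 for Pdgfrb and 0.36 for Tagln. The part of these other cells in the share of reads left for vessel wall genes was not tested.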

How the data were processed

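The authors deposited raw counts of reads per gene for 12 libraries, made from single-end reads with HISAT2 2.2.1 on GRCm38, SAMtools 1.13 and HTSeq-count in reverse-strand mode, with no normalisation. An unstranded kit is named in the labels, a directional kit in the paper's methods. Groups came from the sample labels. The tests were run with edgeR 4.0.16 under R 4.3.3 (filterByExpr, TMM scaling, quasi-likelihood test), in 1 model of 4 group means with 5 contrasts; genes were called at an adjusted p under 0.05. CPM per kb used exon lengths from GENCODE M21. Log2 levels used a prior count of 2. The procedure was tested on simulated data. Floors cover counting error only. The intervals of log2 changes and the p-values measure the spread between pools.

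The members and the gene lists were chosen with earlier results of these data known. The 10 genes are named in full. From each other list, genes called in a genotype comparison were named, up to 4 a direction by smallest adjusted p, or else the 2 of highest level. The alternatives were other scalings, no filter, DESeq2 1.42.0, the study's filter, a replicate block, a model restricted to the groups compared, and omission of single libraries. Same-numbered libraries deviated together (r of 0.36, 0.32 and 0.60) only for swimming in Des-/-, where the block changed no member's call.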

Additional observations from a re-analysis of the deposited data

How the results depend on the processing

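The call of Abcc9 without swimming held with RLE and upper-quartile scaling, no filter, DESeq2, the replicate block (-1.36, edgeR adjusted p = 0.0197), only the libraries compared, and, chosen after seeing the data, the 10 libraries other than replicate 3 of both Des-/- groups (-1.08). Leaving out 1 library gave 0 to 1 members called without and 0 to 1 after swimming. The study's filter on DESeq2 passed 1 member after swimming (Abcc9) and 1 for swimming in Des+/+ (Acta2), where edgeR called 0. In the other alternatives the counts of members called were those of the report, and the block changed no call of a member. Without swimming, no member changed sign in any of 200 recomputed changes. After swimming 15 of 200 did, and no member with a main log2 change beyond 0.41 was among them. Each 200 includes fits that left out a library of neither group compared, which can hardly change a sign. The study's filter repeats the DESeq2 changes, so the 200 are not separate checks. With upper-quartile scaling Tagln came to 0.07 and Vtn to 0.07, and Vtn was 0.07 in the 10 libraries. With 1 library left out, the log2 changes after swimming were -0.45 to 0.18 for Acta2, -0.34 to 0.49 for Tagln, -0.91 to 0.74 for Cnn1, -0.10 to 0.52 for Pdgfrb, -0.42 to 0.34 for Kcnj8, -0.44 to 0.54 for Cspg4 and -0.37 to 0.17 for Vtn. For swimming in Des-/- they were -0.05 to 0.59 for Rgs5 and -0.67 to 0.40 for Abcc9. The cause was not tested.

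Over all genes, DESeq2 called 812 for swimming in Des+/+ and 339 in Des-/-, against 12 and 3 with edgeR. There were 3 pools of mice a group. Cnn1 rested on 14 to 259 reads a library, with the widest spread in the Des+/+ swim group.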
